A study of Mus musculus with 12 samples.

Results

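The 38 mitosis genes described here encode proteins that cells make mostly in the G2 and M phases and use to divide their chromosomes. They were listed by symbol. Each was measured by the probe set of that symbol alone that was brightest over the 12 arrays, which left 36 of 38 genes among the 22180 genes tested. Ccnb1 had no probe set of its own symbol, and the probe set of Ccnf was shared with another symbol, so both are not analysed here. All 36 measured genes had exactly 1 such probe set, so no choice between probe sets was needed. The probe set means over the 12 arrays ran from 5.55 for Hmmr to 9.20 for Cdk1 on the log2 scale, beside a median of 6.60 over all genes tested. At or above that median lay 23 members, and 13 lay below it. These levels belong to single probe sets and give no order of abundance between genes.

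The arrays were made from total RNA of inguinal fat precursors after adipocyte differentiation in culture, in 4 groups of 3. All groups carried the same alleles, a Cre at the R26 locus and a floxed exon of Prdm16 (genotype R26Cre/Prdm16floxEx9), so the control cells carried them too. In the EtOH group growing cells received ethanol for 3 days, and in the 4OHT group 1 uM 4-hydroxytamoxifen (4OHT), which activates tamoxifen-dependent Cre. The EtOH_Rosi and 4OHT_Rosi groups had the same 3 days of ethanol or 4OHT and then 1 uM rosiglitazone, a drug that activates PPARgamma. All cells were differentiated in a medium with isobutylmethylxanthine, indomethacin, dexamethasone, insulin and T3. The sample characteristics name rosiglitazone for the Rosi groups only, whereas the general protocol text names it without a group. No group received 4OHT without the Cre or the floxed allele, so 4OHT itself, Cre activity and loss of the exon cannot be told apart. No label says that replicates are separate cultures, so the p-values rest on the spread among these arrays, which could be technical. RNA came from whole cultures, in which fewer dividing cells and less RNA per dividing cell cannot be told apart.

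Cells enter mitosis when the kinase CDK1, bound to cyclins A and B, is switched on. Kinetochores then attach chromosomes to spindle microtubules under the watch of the spindle checkpoint, the anaphase-promoting complex (APC/C) marks securin and cyclins for destruction, and cytokinesis splits the cell. The genes of these steps are mostly transcribed late in the cell cycle, under the MuvB complex with B-MYB and FOXM1, and are shut off in resting cells by the related DREAM complex. Fat precursors divide in culture and largely leave the cycle as they become adipocytes.

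Many promoters of late cell cycle genes hold a cell cycle homology region (CHR), the element bound by the MuvB complex, and CCAAT boxes, bound by NF-Y. They are shown as background on the listed genes, and their part in the values was not tested. RefSeq windows of 250 bases before to 50 after the transcription start (GRCm38.p6) were at hand for 33 of the 38 listed genes; Cdc25c, Ccna2, Tpx2, Kif20a and Aurkb were not among them. The CHR letters searched were TTTGAA and the variant TTCGAA, on both strands. At least 1 window held them in 26 of 33 members (78.8%) and in 5854 of 27025 genes with windows (21.7%). CCAAT, also on both strands, was found for 26 of 33 members (78.8%) and 41.1% of genes. Both motifs stood in 1 window for 23 of 33 members (69.7%) and for 8.61% of genes; over all 32851 windows of that length the shares were 19.2%, 37.4% and 7.52% for CHR, CCAAT and both. A match of such short letters is a description and not a bound site. The stretches below lie upstream of the start and are written 5′ to 3′ in the direction of the gene, with the CHR and CCAAT letters of either strand in capitals. Nuf2 is shown as a member whose stretch held neither.
Top2a (chr11:99024200-99024389, minus strand): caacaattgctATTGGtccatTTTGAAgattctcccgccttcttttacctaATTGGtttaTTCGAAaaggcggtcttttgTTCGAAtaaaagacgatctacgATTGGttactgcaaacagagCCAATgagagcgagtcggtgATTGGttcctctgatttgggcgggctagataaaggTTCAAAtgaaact
Mki67 (chr7:135716451-135716579, minus strand): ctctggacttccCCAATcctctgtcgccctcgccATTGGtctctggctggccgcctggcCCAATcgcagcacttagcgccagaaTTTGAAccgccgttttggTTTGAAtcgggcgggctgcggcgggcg
Cdk1 (chr10:69352913-69353112, minus strand): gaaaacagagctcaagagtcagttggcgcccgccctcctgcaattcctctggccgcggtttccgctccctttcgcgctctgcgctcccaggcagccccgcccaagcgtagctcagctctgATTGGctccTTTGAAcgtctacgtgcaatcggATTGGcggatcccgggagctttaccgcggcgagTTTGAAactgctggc
Ube2c (chr2:164769729-164769928, plus strand): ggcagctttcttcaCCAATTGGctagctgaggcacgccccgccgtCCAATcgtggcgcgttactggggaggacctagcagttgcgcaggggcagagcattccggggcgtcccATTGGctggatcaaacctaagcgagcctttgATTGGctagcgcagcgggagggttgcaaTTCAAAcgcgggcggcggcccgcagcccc
Cdc20 (chr4:118437344-118437543, minus strand): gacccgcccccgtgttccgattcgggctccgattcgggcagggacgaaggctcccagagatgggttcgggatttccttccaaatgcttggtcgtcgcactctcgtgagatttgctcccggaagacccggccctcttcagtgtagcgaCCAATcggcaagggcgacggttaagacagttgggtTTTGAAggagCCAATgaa
Nuf2 (chr1:169531465-169531664, minus strand): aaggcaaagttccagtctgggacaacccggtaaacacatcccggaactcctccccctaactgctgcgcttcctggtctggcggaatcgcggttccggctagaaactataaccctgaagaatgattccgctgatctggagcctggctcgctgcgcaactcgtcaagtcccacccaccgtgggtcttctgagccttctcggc
The nearest CHR letters before the start began at position -15 in Cdk1, -18 in Cdc20, -23 in Top2a, -29 in Ube2c and -98 in Mki67, counting the base before the start as -1. How many CHR or CCAAT letters a stretch held was not set against the values that follow.

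The log2 values of the 12 arrays had medians between 5.97 and 6.05. Their number per group, 3, limits the precision. On the third principal component 4OHT_Rosi 3 stood apart, at 16.03. The called counts, signs and median of the members in 4OHT_Rosi against EtOH_Rosi are given with and without it. Their counts in 4OHT_Rosi against 4OHT, the order of group means, the counts of overlap and the SD within groups include it. Prdm16, the targeted gene, differed by -0.17 ± 0.10 (adjusted p = 0.455) between 4OHT and EtOH and by -0.71 ± 0.10 (adjusted p = 0.000646) between 4OHT_Rosi and EtOH_Rosi. The position of its probe set with respect to the deleted exon was not stated, so these values do not measure the deletion. Of the 9 adipocyte markers measured, the mean level lay between 11.81 and 12.07 on every array, and Adiponectin's gene Adipoq between 10.50 and 11.11; single markers moved in both directions, as given with the other markers. Differences below are on the log2 scale, ± the standard error from limma, with n = 3 per group. Their p-values were adjusted over all 22180 genes by the Benjamini-Hochberg method. A gene was called, and is said to have risen or fallen, at an adjusted p under 0.05.

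Without rosiglitazone, the mitosis genes were lower after 4OHT almost throughout: 32 of 36 fell and 0 rose. Of all genes tested 1.79% were called lower and 2.13% higher. The members' log2 differences ran from -0.96 (Kif23) to -0.13 (Espl1), with a median of -0.49 beside 0 for all genes. All 3 4OHT arrays lay below all 3 EtOH arrays for 35 of 36 members, beside 11.7% of all genes; the exception was Espl1. The 4 members that were not called, Cdc25c, Tpx2, Ttk and Espl1, were all negative. The count of 32 was 14 without 4OHT 1 and 18 without EtOH 2, and between 22 and 33 without any other array. Of all genes 0.951% were called lower without 4OHT 1 and 0.911% without EtOH 2. The 14 that were called in every alternative that tested them were Birc5, Bub1b, Ccna2, Ccnb2, Cenpa, Cenpe, Cenpf, Kif23, Mki67, Nuf2, Plk1, Prc1, Top2a and Ube2c; Birc5, Bub1b and Cenpf were left out of 1 alternative, which kept genes above the 50th percentile of mean level. 4OHT 1 was the lowest 4OHT array for 26 members.

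With rosiglitazone, the same treatment was followed by few differences: 2 of 36 members fell, Mki67 and Cenpa, and 0 rose. Of all genes 3.38% were called lower and 4.65% higher. The differences ran from -0.35 to 0.26 with a median of -0.06 (all genes -0.01), and 13 members were positive, beside 46.6% of all genes. The 3 4OHT_Rosi arrays lay below the 3 EtOH_Rosi arrays for 2 members (Cenpa and Cdc20), beside 10.3% of all genes. They lay above them for 3 members (Ttk, Hmmr and Nek2), an order whose share over all genes was not counted. The other 31 members overlapped, some of them only through 4OHT_Rosi 3. Cdca3, for instance, read 6.36, 6.33 and 6.70 in 4OHT_Rosi and 6.58, 6.65 and 6.55 in EtOH_Rosi. The count of 2 was 0 without EtOH 2, EtOH 3, EtOH_Rosi 1, EtOH_Rosi 2, 4OHT_Rosi 1 or 4OHT_Rosi 2, was 1 without EtOH 1, 4OHT 1, 4OHT 3 or EtOH_Rosi 3, and was 3 without 4OHT_Rosi 3. The median was 0.025 without 4OHT_Rosi 1 and -0.13 without 4OHT_Rosi 3, which was the highest 4OHT_Rosi array for 33 of 36 members. The standard errors of the members ran from 0.07 to 0.15 in each comparison of 2 groups, and a difference that was not called is not shown to be absent.

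With rosiglitazone after ethanol nearly every mitosis gene was lower: 34 of 36 members fell and 0 rose. In that comparison 16.3% of all genes were called lower and 14.4% higher. The median difference was -0.84 (all genes 0.01) and the range -1.44 (Ndc80) to -0.18 (Espl1). All 3 EtOH_Rosi arrays lay below all EtOH arrays for 35 members, beside 20.9% of all genes. A fall of at least 2-fold was seen in 13 members, each with a probe set mean at or above the median of all genes. The share of all genes with such a fall was not counted. Cdca3 and Espl1 were not called. Rosiglitazone after 4OHT was followed by a fall in 21 members and a rise in 0, where 12.1% of all genes were called lower and 11.6% higher. There the median was -0.40 (all genes 0), the range -0.83 (Mki67) to 0.07 (Nek2), and the arrays did not overlap, with 4OHT_Rosi lower, for 26 members, beside 18.0% of all genes. The comparisons with EtOH share the EtOH arrays, and those with 4OHT share the 4OHT arrays, so each set of values is given side by side and no overlap between them is drawn.

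The difference between the 4OHT effects, with minus without rosiglitazone, was called and positive for 8 of 36 members: Kif23, Plk1, Birc5, Nuf2, Top2a, Ube2c, Hmmr and Cenpe. Of all genes 0.523% were called positive and 0.482% negative in this interaction term. All 36 members were positive, beside 48.4% of all genes, with a median of 0.48 and a range of 0.04 (Espl1) to 0.90 (Kif23). The count of 8 was 0 without EtOH 1, EtOH 2 or 4OHT 1, was 1 without 4OHT 3, EtOH_Rosi 2 or 4OHT_Rosi 3, was 2 without EtOH_Rosi 3 and 3 without EtOH 3 or 4OHT 2. It was 8, 11 and 7 without EtOH_Rosi 1, 4OHT_Rosi 1 and 4OHT_Rosi 2. Of all 22180 genes, 116 were called positive with all arrays. Without EtOH 1, EtOH 2 and 4OHT 1 these were 36, 35 and 24, and 177 without 4OHT_Rosi 1. None of the 8 was called in every alternative, while the median stayed between 0.38 and 0.53 without any 1 array.

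Among the group means, EtOH had the highest mean for all 36 members, and 4OHT the next highest for 32. The lowest mean was that of 4OHT_Rosi for 22 members, EtOH_Rosi for 13 and 4OHT for 1. All EtOH arrays stood above the other 9 arrays for 35 members, and all 4OHT arrays above the 6 rosiglitazone arrays for 23. EtOH_Rosi and 4OHT_Rosi overlapped for 31. The shares of all genes with these orders of means and arrays, or with that overlap, were not counted. The median SD of the members was 0.20 within 4OHT_Rosi, beside 0.08 to 0.11 within the other groups; for all genes it was 0.09 in 4OHT_Rosi and 0.07 to 0.09 elsewhere.

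**Figure D1:**
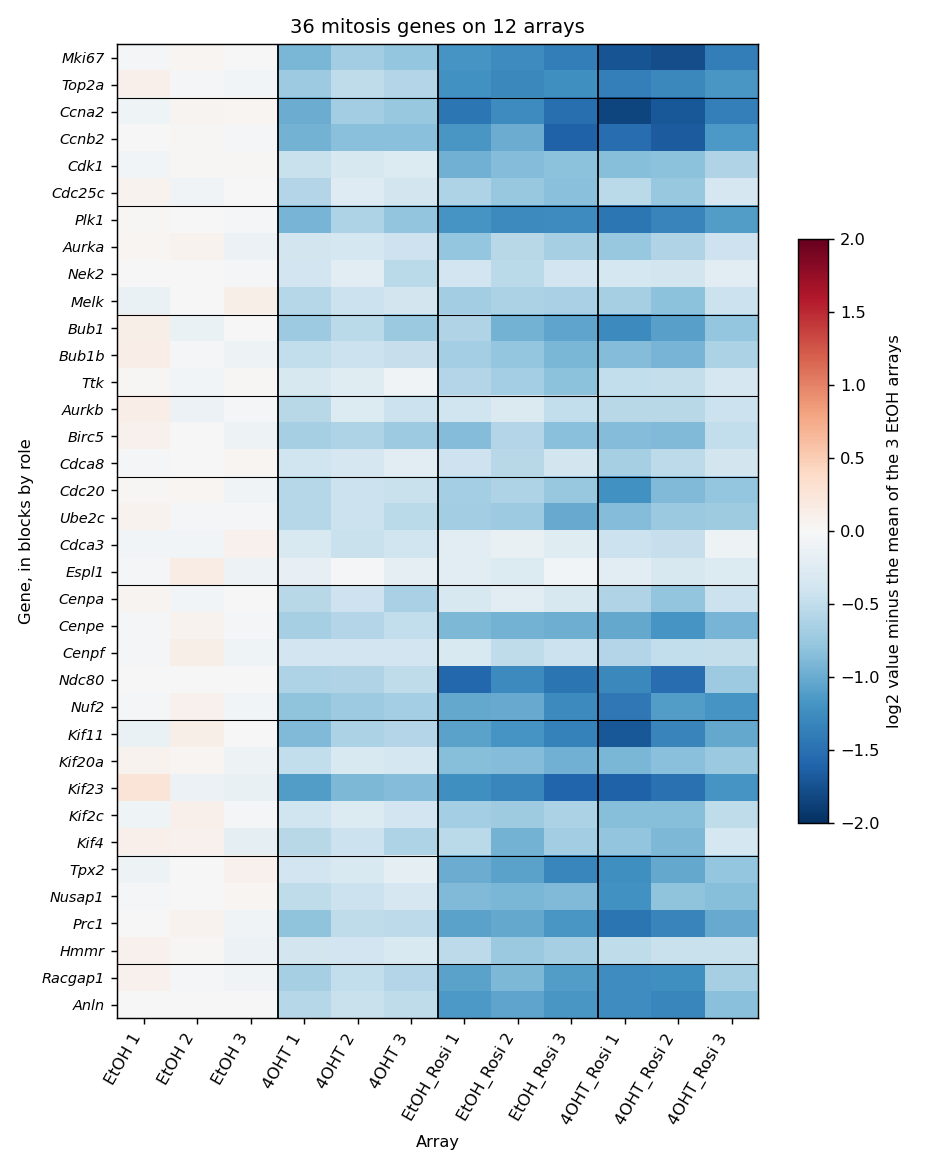
Heat map of the 36 measured mitosis genes (rows, in blocks by role) on the 12 arrays (columns). Colour is the log2 value minus the mean of the 3 EtOH arrays, blue for lower; the 4OHT columns are paler than the rosiglitazone columns, and 4OHT_Rosi 3 is the palest of its group for 33 genes.

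Of the proliferation markers, Mki67 encodes Ki-67, the protein that coats mitotic chromosomes and is lost in resting cells (probe set 17497334). Mki67 measured 9.28, 9.34 and 9.30 in EtOH, 8.39, 8.61 and 8.54 in 4OHT, 8.13, 8.05 and 7.92 in EtOH_Rosi and 7.58, 7.54 and 7.92 in 4OHT_Rosi. The groups were fully apart except for EtOH_Rosi and 4OHT_Rosi, which met at 7.92. Mki67 was -0.79 ± 0.10 (adjusted p = 0.0004) in 4OHT against EtOH and -0.35 ± 0.10 (adjusted p = 0.0387) in 4OHT_Rosi against EtOH_Rosi. It fell by 1.27 ± 0.10 (adjusted p = 4.46e-07) with rosiglitazone after ethanol and by 0.83 ± 0.10 (adjusted p = 2.51e-05) after 4OHT, the largest fall of the last comparison among the members. Top2a, the topoisomerase that untangles sister chromatids, has the promoter stretch with 4 CHR and 5 CCAAT matches shown above (probe set 17268909). The EtOH arrays read 8.36, 8.22 and 8.20, the 4OHT arrays 7.53, 7.75 and 7.68, the EtOH_Rosi arrays 7.05, 6.97 and 7.03 and the 4OHT_Rosi arrays 6.89, 6.97 and 7.09 for Top2a. EtOH and 4OHT stood apart from each other and from all 6 rosiglitazone arrays, which overlapped among themselves. Top2a fell 1.52-fold after 4OHT (-0.61 ± 0.07, adjusted p = 0.000414). It fell 2.37-fold with rosiglitazone after ethanol (-1.24 ± 0.07, adjusted p = 6.59e-08). With rosiglitazone the 4OHT difference was -0.03 ± 0.07 (adjusted p = 0.857), and the interaction was 0.57 ± 0.10 (adjusted p = 0.0249).

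Among the cyclins and their kinase, 3 of 4 measured genes fell after 4OHT and all 4 with rosiglitazone after ethanol. Ccna2 encodes cyclin A2, the partner of CDK1 and CDK2 from S phase to early mitosis. Levels of Ccna2 were 9.31, 9.46 and 9.44 in EtOH, 8.41, 8.71 and 8.65 in 4OHT, 7.96, 8.15 and 7.89 in EtOH_Rosi and 7.57, 7.70 and 8.04 in 4OHT_Rosi. All 3 4OHT arrays lay between EtOH and the rosiglitazone arrays, and the latter groups overlapped. The fall was 0.81 ± 0.12 (adjusted p = 0.00117) after 4OHT, 1.40 ± 0.12 (adjusted p = 9.12e-07) with rosiglitazone after ethanol, and 0.82 ± 0.12 (adjusted p = 0.000135) with it after 4OHT. Ccnb2, the measured B-type cyclin, fell by 0.87 ± 0.14 (adjusted p = 0.0036) after 4OHT. It fell by 1.26 ± 0.14 (adjusted p = 1.32e-05) with rosiglitazone after ethanol. Cdk1 encodes the kinase that drives entry into mitosis. In EtOH Cdk1 stood at 9.65, 9.72 and 9.72, in 4OHT at 9.25, 9.37 and 9.43, in EtOH_Rosi at 8.74, 8.83 and 8.87 and in 4OHT_Rosi at 8.84, 8.87 and 9.10. Its 4 groups were ordered like those of Ccna2, except that the 4OHT_Rosi mean stood above that of EtOH_Rosi. Cdk1 fell by 0.35 ± 0.08 (adjusted p = 0.0205) after 4OHT without rosiglitazone and was 0.12 ± 0.08 (adjusted p = 0.406) with it. Cdc25c encodes a phosphatase that activates CDK1. Its log2 values were 6.26, 6.12 and 6.17 on the EtOH arrays, 5.59, 5.93 and 5.81 on the 4OHT arrays, 5.57, 5.43 and 5.35 on the EtOH_Rosi arrays and 5.65, 5.43 and 5.85 on the 4OHT_Rosi arrays. Its EtOH arrays were above all others, but the 4OHT and rosiglitazone arrays overlapped. The 4OHT difference was -0.41 ± 0.11 (adjusted p = 0.0543), not called, against 0.19 ± 0.11 (adjusted p = 0.345) with rosiglitazone.

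The 4 mitotic kinases all fell after 4OHT and all fell with rosiglitazone after ethanol, while 1 of 4 (Plk1) fell with rosiglitazone after 4OHT. Plk1, polo-like kinase 1, acts from mitotic entry to cytokinesis and had the smallest p of the members after 4OHT (probe set 17482739). Plk1 measured 8.75, 8.72 and 8.70 in EtOH, 7.80, 8.10 and 7.93 in 4OHT, 7.54, 7.45 and 7.46 in EtOH_Rosi and 7.27, 7.41 and 7.61 in 4OHT_Rosi. EtOH, 4OHT and the rosiglitazone arrays formed 3 separate ranges. Plk1 fell by 0.78 ± 0.09 (adjusted p = 0.000249) after 4OHT. It fell by 1.24 ± 0.09 (adjusted p = 2.9e-07) with rosiglitazone after ethanol. The 4OHT difference with rosiglitazone was -0.05 ± 0.09 (adjusted p = 0.801), and the interaction 0.73 ± 0.13 (adjusted p = 0.0204) had the smallest p of the members. Aurka encodes Aurora A, the kinase of centrosomes and spindle poles. The EtOH arrays read 8.18, 8.21 and 8.03, the 4OHT arrays 7.77, 7.79 and 7.73, the EtOH_Rosi arrays 7.36, 7.58 and 7.48 and the 4OHT_Rosi arrays 7.39, 7.54 and 7.72 for Aurka. The 4OHT arrays stood below EtOH and just above the rosiglitazone arrays. The differences after 4OHT were -0.38 ± 0.09 (adjusted p = 0.0249) without and 0.08 ± 0.09 (adjusted p = 0.686) with rosiglitazone. Nek2, a kinase of centrosome separation, differed from this pattern in its rosiglitazone arrays. Levels of Nek2 were 6.11, 6.11 and 6.08 in EtOH, 5.72, 5.89 and 5.56 in 4OHT, 5.72, 5.56 and 5.72 in EtOH_Rosi and 5.75, 5.73 and 5.89 in 4OHT_Rosi. All 3 4OHT_Rosi arrays were at or above 5.73 and above the EtOH_Rosi arrays, and they overlapped with 4OHT. Nek2 was -0.38 ± 0.08 (adjusted p = 0.0195) after 4OHT, 0.12 ± 0.08 (adjusted p = 0.447) after 4OHT with rosiglitazone, and 0.07 ± 0.08 (adjusted p = 0.641) with rosiglitazone after 4OHT, the highest value of that comparison. Melk, a kinase of the AMPK family made in dividing cells, was dimmer. In EtOH Melk stood at 6.79, 6.94 and 7.05, in 4OHT at 6.35, 6.49 and 6.56, in EtOH_Rosi at 6.23, 6.30 and 6.28 and in 4OHT_Rosi at 6.26, 6.11 and 6.50. Its EtOH arrays were separate, and its 4OHT arrays overlapped with 4OHT_Rosi. The 4OHT differences were -0.46 ± 0.10 (adjusted p = 0.0157) without and 0.02 ± 0.10 (adjusted p = 0.938) with rosiglitazone.

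**Figure D2:**
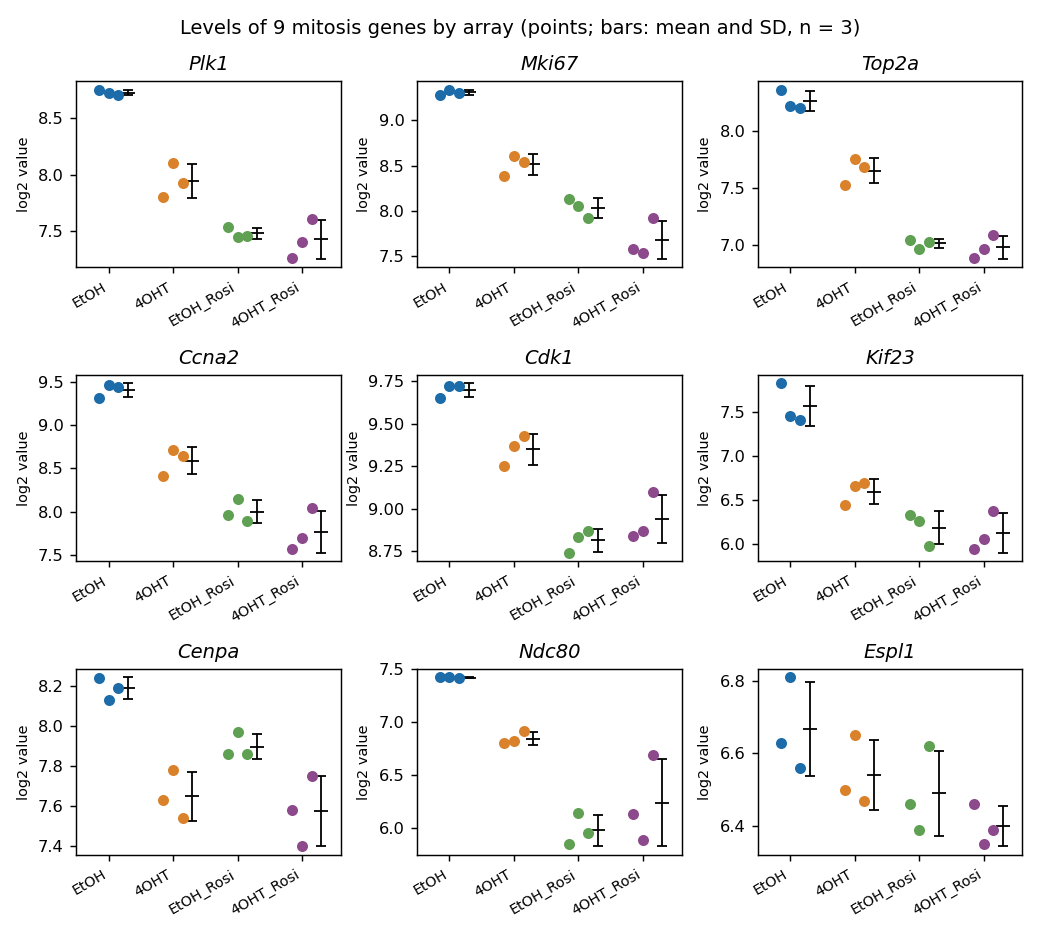
Log2 values of 9 members by array (points), with the mean and SD of each group of 3 beside them; each panel has its own axis, which does not start at 0. Plk1, Mki67, Top2a, Ccna2, Cdk1 and Kif23 step down from EtOH to 4OHT to the rosiglitazone groups, Ndc80 shows 4OHT_Rosi 3 at 6.69 above the other rosiglitazone arrays, and Espl1 overlaps between groups.

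Of the spindle checkpoint kinases, which hold back anaphase until chromosomes are attached, Bub1 (-0.67) and Bub1b (-0.46) fell after 4OHT. Ttk encodes MPS1, the kinase at the top of that checkpoint. Its log2 values were 6.41, 6.32 and 6.41 on the EtOH arrays, 6.06, 6.14 and 6.31 on the 4OHT arrays, 5.79, 5.70 and 5.56 on the EtOH_Rosi arrays and 5.89, 5.91 and 6.04 on the 4OHT_Rosi arrays. The 4OHT arrays lay below EtOH, by a narrow margin in 4OHT 3, and the 4OHT_Rosi arrays lay above EtOH_Rosi. Ttk was -0.21 ± 0.08 (adjusted p = 0.19) after 4OHT and 0.26 ± 0.08 (adjusted p = 0.0589) after 4OHT with rosiglitazone; neither was called, and its interaction was 0.47 ± 0.11 (adjusted p = 0.0675). Ttk fell by 0.70 ± 0.08 (adjusted p = 1.26e-05) with rosiglitazone after ethanol. In the chromosomal passenger complex, which corrects wrong attachments, all 3 members fell after 4OHT and none was called in the comparison of 4OHT_Rosi with 4OHT. Birc5 encodes survivin, the subunit that brings the complex to centromeres. Birc5 measured 6.28, 6.20 and 6.09 in EtOH, 5.53, 5.58 and 5.46 in 4OHT, 5.32, 5.60 and 5.35 in EtOH_Rosi and 5.33, 5.31 and 5.70 in 4OHT_Rosi. The EtOH arrays stood clear of the rest, and the other 3 groups overlapped. Birc5 fell by 0.67 ± 0.10 (adjusted p = 0.00253) after 4OHT, was 0.02 ± 0.10 (adjusted p = 0.934) with rosiglitazone, and its interaction was 0.69 ± 0.15 (adjusted p = 0.0452). Aurkb, its kinase, fell by 0.42 after 4OHT and by 0.39 with rosiglitazone after ethanol, and Cdca8 (borealin) by 0.32 and 0.44.

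Around the APC/C, Cdc20 and Ube2c fell after 4OHT and with rosiglitazone in both settings. Cdc20 encodes the activator of the APC/C at anaphase. The EtOH arrays read 8.41, 8.43 and 8.32, the 4OHT arrays 7.82, 7.96 and 7.94, the EtOH_Rosi arrays 7.70, 7.77 and 7.63 and the 4OHT_Rosi arrays 7.18, 7.50 and 7.62 for Cdc20. The 4 groups formed separate ranges, with 4OHT_Rosi lowest, at 7.62 or below, next to EtOH_Rosi at 7.63 or above. Cdc20 was -0.48 ± 0.09 (adjusted p = 0.011) after 4OHT and -0.27 ± 0.09 (adjusted p = 0.114) after 4OHT with rosiglitazone, the latter not called, though it was -0.36 (adjusted p = 0.0362) without 4OHT_Rosi 3. Ube2c encodes the ubiquitin-conjugating enzyme of the APC/C. Levels of Ube2c were 8.94, 8.85 and 8.84 in EtOH, 8.31, 8.45 and 8.34 in 4OHT, 8.18, 8.15 and 7.87 in EtOH_Rosi and 8.01, 8.14 and 8.16 in 4OHT_Rosi. The 4OHT arrays were between EtOH and the rosiglitazone arrays. Ube2c was -0.51 ± 0.08 (adjusted p = 0.00319) after 4OHT without rosiglitazone and 0.04 ± 0.08 (adjusted p = 0.858) with it, with an interaction of 0.55 ± 0.12 (adjusted p = 0.0442). Cdca3, a protein linked to the destruction of Wee1, fell by 0.38 after 4OHT without rosiglitazone. Cdca3 was -0.20 ± 0.09 (adjusted p = 0.109) with rosiglitazone after ethanol. Espl1, which encodes separase, the protease that cuts cohesin, was called in no comparison. Espl1 was -0.13 ± 0.08 (adjusted p = 0.515) after 4OHT. It was -0.18 ± 0.08 (adjusted p = 0.127) with rosiglitazone after ethanol.

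All 5 kinetochore and centromere genes fell after 4OHT and all 5 fell with rosiglitazone after ethanol. Cenpa encodes the histone H3 variant that marks centromeres. In EtOH Cenpa stood at 8.24, 8.13 and 8.19, in 4OHT at 7.63, 7.78 and 7.54, in EtOH_Rosi at 7.86, 7.97 and 7.86 and in 4OHT_Rosi at 7.58, 7.40 and 7.75. Here the 4OHT arrays lay below the EtOH_Rosi arrays as well as the EtOH arrays, and overlapped with 4OHT_Rosi. Cenpa fell by 0.54 ± 0.09 (adjusted p = 0.00331) after 4OHT and by 0.32 ± 0.09 (adjusted p = 0.0389) after 4OHT with rosiglitazone. With rosiglitazone after ethanol it fell by 0.29 ± 0.09 (adjusted p = 0.0202). Cenpe is the kinetochore kinesin that carries chromosomes to the equator. Its log2 values were 7.22, 7.32 and 7.23 on the EtOH arrays, 6.59, 6.67 and 6.76 on the 4OHT arrays, 6.36, 6.31 and 6.28 on the EtOH_Rosi arrays and 6.24, 6.08 and 6.33 on the 4OHT_Rosi arrays. The EtOH and 4OHT arrays were apart from each other and from the rosiglitazone arrays. Cenpe fell by 0.58 ± 0.07 (adjusted p = 0.000414) after 4OHT, was -0.10 ± 0.07 (adjusted p = 0.487) with rosiglitazone, and had an interaction of 0.48 ± 0.10 (adjusted p = 0.0422). Ndc80 and Nuf2 form the microtubule-binding end of the NDC80 complex. Ndc80 measured 7.42, 7.42 and 7.41 in EtOH, 6.80, 6.82 and 6.91 in 4OHT, 5.85, 6.14 and 5.95 in EtOH_Rosi and 6.13, 5.89 and 6.69 in 4OHT_Rosi. For Ndc80, 4OHT_Rosi 3 at 6.69 was far above the other 5 rosiglitazone arrays. Ndc80 fell 2.71-fold with rosiglitazone after ethanol (-1.44 ± 0.15, adjusted p = 6.07e-06), the largest fall of any member, and was -0.57 ± 0.15 (adjusted p = 0.0492) after 4OHT and 0.26 ± 0.15 (adjusted p = 0.369) with rosiglitazone, a value that was 0.03 (adjusted p = 0.911) without 4OHT_Rosi 3. The EtOH arrays read 7.89, 8.0 and 7.86, the 4OHT arrays 7.11, 7.19 and 7.23, the EtOH_Rosi arrays 6.89, 6.91 and 6.64 and the 4OHT_Rosi arrays 6.49, 6.80 and 6.73 for Nuf2. Nuf2 had 3 separate ranges, of which the rosiglitazone arrays formed the lowest. It fell by 0.74 ± 0.09 (adjusted p = 0.000414) after 4OHT and was -0.14 ± 0.09 (adjusted p = 0.433) with rosiglitazone, with an interaction of 0.60 ± 0.13 (adjusted p = 0.0448). Cenpf fell by 0.38 after 4OHT and by 0.42 with rosiglitazone after ethanol.

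The 5 mitotic kinesins, motors that build and use the spindle, fell after 4OHT and with rosiglitazone after ethanol. Kif23 encodes MKLP1, the motor of the central spindle and midbody. Levels of Kif23 were 7.82, 7.45 and 7.41 in EtOH, 6.44, 6.66 and 6.69 in 4OHT, 6.33, 6.26 and 5.98 in EtOH_Rosi and 5.95, 6.06 and 6.38 in 4OHT_Rosi. EtOH 1 stood above the other EtOH arrays, and the 4OHT arrays lay below all EtOH arrays and above the rosiglitazone arrays. Kif23 fell 1.95-fold after 4OHT (-0.96 ± 0.13, adjusted p = 0.000994), the largest fall of that comparison among members, and was -0.06 ± 0.13 (adjusted p = 0.858) with rosiglitazone; its interaction was 0.90 ± 0.19 (adjusted p = 0.0426). Kif20a, a motor of the late spindle, was measured as follows. In EtOH Kif20a stood at 8.30, 8.28 and 8.13, in 4OHT at 7.75, 7.93 and 7.89, in EtOH_Rosi at 7.39, 7.37 and 7.27 and in 4OHT_Rosi at 7.32, 7.40 and 7.50. Its groups had the order of Cdk1. Kif20a fell by 0.38 ± 0.07 (adjusted p = 0.00905) after 4OHT and was 0.06 ± 0.07 (adjusted p = 0.696) with rosiglitazone. Kif4, a chromosome-bound motor, had a dim probe set. Its log2 values were 6.23, 6.22 and 5.95 on the EtOH arrays, 5.58, 5.70 and 5.52 on the 4OHT arrays, 5.59, 5.19 and 5.44 on the EtOH_Rosi arrays and 5.34, 5.23 and 5.78 on the 4OHT_Rosi arrays. The EtOH arrays were apart, and 4OHT_Rosi 3 lay above the 4OHT arrays. Kif4 fell by 0.53 ± 0.14 (adjusted p = 0.0461) after 4OHT and was 0.04 ± 0.14 (adjusted p = 0.903) with rosiglitazone. Kif11, which pushes spindle poles apart, fell by 0.70 after 4OHT and by 1.20 with rosiglitazone after ethanol. Kif2c, which takes microtubules apart at centromeres, fell by 0.35 and 0.68 in these comparisons.

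Of the spindle assembly genes, Nusap1 (-0.42), Prc1 (-0.61) and Hmmr fell after 4OHT. Tpx2, the factor that activates Aurora A on spindle microtubules, was not called there. Tpx2 measured 8.19, 8.29 and 8.38 in EtOH, 7.91, 7.98 and 8.10 in 4OHT, 7.29, 7.21 and 6.99 in EtOH_Rosi and 7.06, 7.27 and 7.51 in 4OHT_Rosi. Its 4OHT arrays were just under EtOH, while the rosiglitazone arrays lay far lower. Tpx2 was -0.29 ± 0.11 (adjusted p = 0.188) after 4OHT and 0.12 ± 0.11 (adjusted p = 0.613) with rosiglitazone, but fell by 1.12 ± 0.11 (adjusted p = 3.46e-06) with rosiglitazone after ethanol and by 0.72 ± 0.11 (adjusted p = 0.00024) after 4OHT. Hmmr, a spindle-bound protein also known as a hyaluronan receptor, had the dimmest probe set. The EtOH arrays read 6.0, 5.95 and 5.81, the 4OHT arrays 5.55, 5.54 and 5.62, the EtOH_Rosi arrays 5.39, 5.17 and 5.25 and the 4OHT_Rosi arrays 5.41, 5.47 and 5.48 for Hmmr. The 4OHT_Rosi arrays lay above EtOH_Rosi and below 4OHT. Hmmr fell by 0.35 ± 0.07 (adjusted p = 0.0113) after 4OHT and was 0.18 ± 0.07 (adjusted p = 0.139) with rosiglitazone, with an interaction of 0.53 ± 0.10 (adjusted p = 0.0252). Of the cytokinesis genes, Racgap1, a subunit of centralspindlin, fell by 0.58 after 4OHT and by 1.03 with rosiglitazone after ethanol. Anln, the scaffold anillin of the contractile ring, fell by 0.51 and 1.12.

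**Figure D3:**
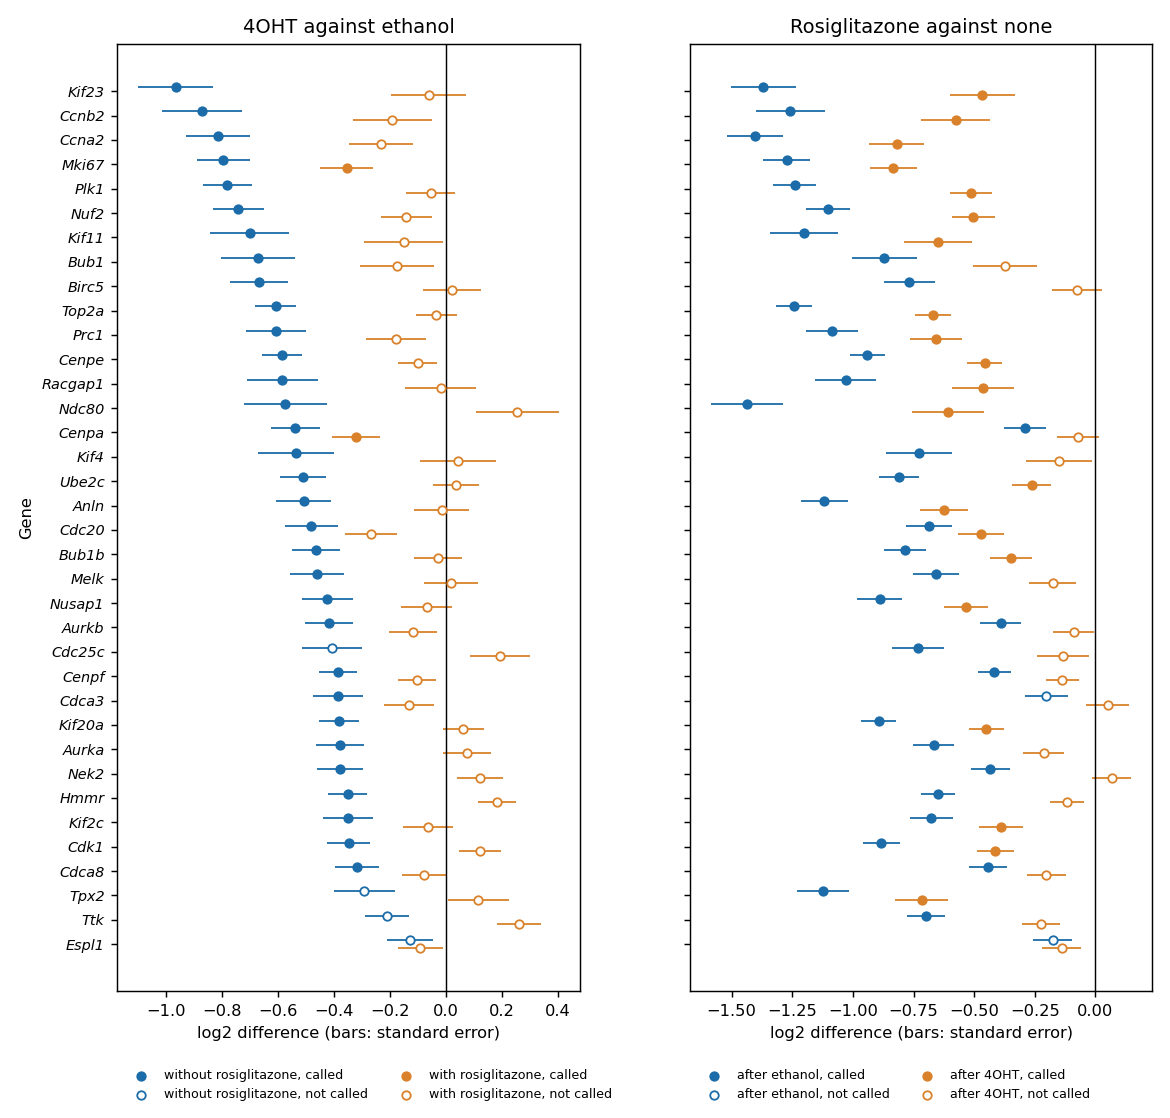
Log2 differences of the 36 members (points, with limma's standard error) for 4OHT against ethanol (left; blue without, orange with rosiglitazone) and for rosiglitazone against none (right; blue after ethanol, orange after 4OHT). Filled points were called at an adjusted p under 0.05; on the left the blue points lie between -0.96 and -0.13 and the orange ones between -0.35 and 0.26.

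The signs of the 4OHT differences, from groups that share no array, were negative without and positive with rosiglitazone for 13 members: Aurka, Birc5, Cdc25c, Cdk1, Hmmr, Kif20a, Kif4, Melk, Ndc80, Nek2, Tpx2, Ttk and Ube2c. None of the positive values was called. Without 4OHT_Rosi 3, 9 of the 13 stayed positive, from 0.0017 (Tpx2) to 0.22 (Ttk), and 4 turned negative, namely Aurka (-0.0083), Melk, Birc5 and Kif4 (-0.12). Birc5 was negative too without EtOH_Rosi 1 or EtOH_Rosi 3, Kif4 without EtOH_Rosi 2 and Ube2c without EtOH_Rosi 3. Over all members, 21 were positive without 4OHT_Rosi 1 and 16 without 4OHT_Rosi 2. The interaction was called for Birc5, Hmmr and Ube2c of these 13. The 23 members with brighter probe sets had a median 4OHT difference of -0.57 and the 13 dimmer ones -0.41; with rosiglitazone after ethanol the medians were -1.09 and -0.70, and in the interaction both were 0.48.

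Among 56 further mitosis genes measured of 58 listed, the median after 4OHT was -0.23. Of these genes 17 fell and 0 rose, beside 1.79% and 2.13% of all genes. The falls included Depdc1a (-0.73) and the spindle gene Ckap2l (-0.63), the cytokinesis genes Ect2 (-0.68) and Cep55 (-0.53), and the centromere gene Cenpi (-0.42). The count was 7 without 4OHT 1, 10 without EtOH 1, EtOH 2 or 4OHT 3, and 11 without 4OHT 2. With limma's weights per array it was 30, where 4.86% of all genes were called lower. With rosiglitazone 2 of 56 fell (Smc4, -0.30, and Cenpm, -0.34) and 2 rose (Gtse1, 0.50, and Bub3, 0.25). Of all genes 3.38% fell and 4.65% rose there, and the median of the 56 was 0.01. The rises were 1 without EtOH_Rosi 2 or EtOH_Rosi 3 and 0 without 4OHT_Rosi 3, and the falls 1 without EtOH_Rosi 1, EtOH_Rosi 2, 4OHT_Rosi 1 or 4OHT_Rosi 2. Rosiglitazone after ethanol went with 42 falls and 0 rises, and after 4OHT with 20 falls (12 without 4OHT 2, 13 without 4OHT_Rosi 1) and 0 rises. Of all genes 16.3% and 12.1% were called lower there. Of 31 measured DNA replication genes, 6 fell after 4OHT, among them Pcna (-0.35), the sliding clamp of DNA polymerases, and the helicase subunits Mcm2 (-0.42) and Mcm3 (-0.40). That 6 was 3 without EtOH 1, 4OHT 1 or 4OHT 3. It was 15 with weights per array, beside 4.86% of all genes. In a fit of the EtOH and 4OHT arrays alone it was 11, beside 2.8% of all genes. With rosiglitazone 0 fell (1 without 4OHT_Rosi 3) and Rfc3 rose (0.29), a call lost without EtOH_Rosi 2, EtOH_Rosi 3 or 4OHT_Rosi 3, and rosiglitazone after ethanol went with 24 falls and 1 rise (Rfc1, 0.35).

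**Figure D4:**
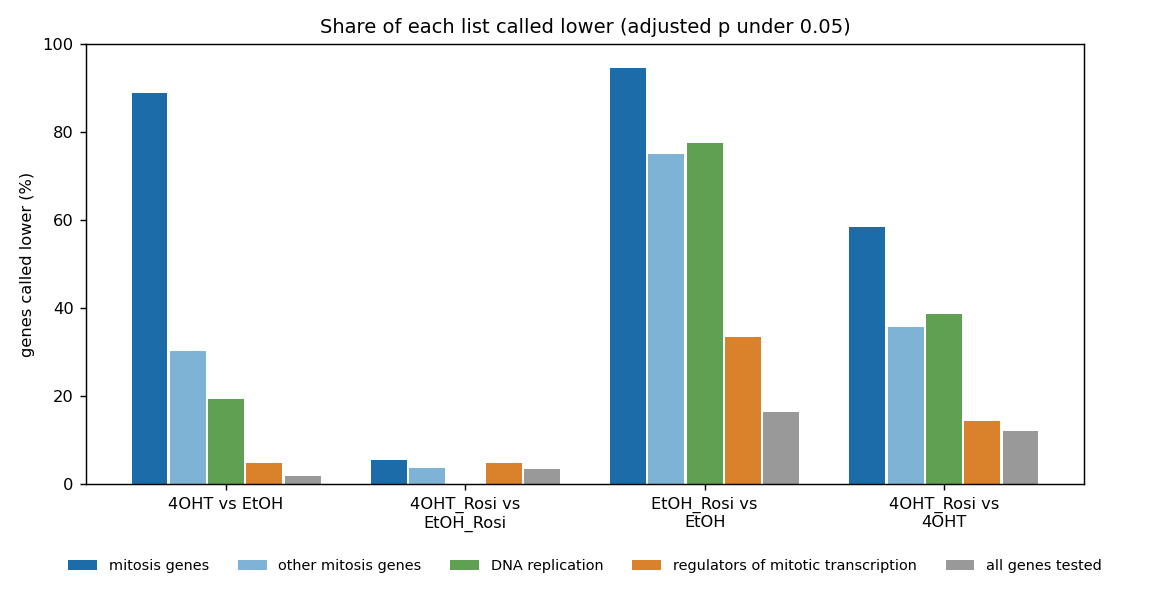
Bars show the share of each gene list called lower (adjusted p under 0.05) in the 4 comparisons of 2 groups, beside all genes tested. The mitosis genes reach 32 of 36 in 4OHT against EtOH, 2 of 36 in 4OHT_Rosi against EtOH_Rosi, 34 of 36 in EtOH_Rosi against EtOH and 21 of 36 in 4OHT_Rosi against 4OHT; for all genes the bars are 1.79%, 3.38%, 16.3% and 12.1%.

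The 21 factors that regulate these genes gave few calls after 4OHT, where 1.79% of all genes fell and 2.13% rose. Of the 21, 1 fell (Tfdp1, -0.28, the E2F partner DP1) and 0 rose, with a median of -0.02. The call of Tfdp1 was lost without EtOH 1, EtOH 2 or any 1 of the 4OHT arrays. With weights per array 3 of the 21 fell, beside 4.86% of all genes. Foxm1, the factor that drives many of the members, read 6.86, 7.15 and 7.05 in EtOH and 6.75, 6.78 and 6.86 in 4OHT, which met at 6.86. It was -0.22 ± 0.09 (adjusted p = 0.208) after 4OHT and 0.01 ± 0.09 (adjusted p = 0.98) after 4OHT with rosiglitazone, and fell by 0.65 ± 0.09 (adjusted p = 5.03e-05) with rosiglitazone after ethanol. Mybl2, which encodes B-MYB, was -0.16 ± 0.10 (adjusted p = 0.468) after 4OHT. It fell by 0.37 ± 0.10 (adjusted p = 0.00934) with rosiglitazone after ethanol. E2f4, the E2F of the DREAM complex, was called in no comparison (-0.12 ± 0.07, adjusted p = 0.451 after 4OHT). With rosiglitazone after ethanol 7 of the 21 regulators fell and 4 rose, beside 16.3% and 14.4% of all genes. The rises were Rb1 (0.72), Nfyc (0.30), Lin9 (0.24) and Lin37 (0.18), and without EtOH 1 they numbered 2. Of the 16 G1 cyclins, kinases and inhibitors measured, 4 rose and 1 fell after 4OHT, beside 2.13% and 1.79% of all genes. The CDK inhibitor Cdkn1a (p21) rose by 0.24 ± 0.05 (adjusted p = 0.0211), with 4OHT arrays at 12.45 to 12.48 and EtOH arrays at 12.20 to 12.25. Ccnd2 (0.25), Cdk6 (0.27) and Cdkn1c (0.30) rose too. The count of 4 rises was 0 without EtOH 2, EtOH 3 or 4OHT 2, 1 without EtOH 1 or 4OHT 3, and 2 without 4OHT 1. With weights per array it was 7, where 1167 of all 22180 genes were called higher. Cdkn1b (p27) fell after 4OHT in both settings, by 0.41 ± 0.06 (adjusted p = 0.00233) without and 0.45 ± 0.06 (adjusted p = 0.000668) with rosiglitazone. Ccnd1, cyclin D1, was 0.29 ± 0.08 (adjusted p = 0.0697) after 4OHT. It rose by 0.80 ± 0.08 (adjusted p = 6.1e-05) after 4OHT with rosiglitazone. With rosiglitazone after ethanol it fell by 1.22 ± 0.08 (adjusted p = 1.75e-07). Of the 16 genes, 3 rose and 5 fell there, beside 14.4% and 16.3% of all genes. With rosiglitazone after 4OHT 3 rose and 6 fell, beside 11.6% and 12.1%. In these 2 comparisons Cdc25a rose by 0.83 and 1.24. Fitting only the 2 groups compared left 1 rise in each. After ethanol the replicate block left 1 too, and median centring gave 5 rises and 3 falls. In 4OHT_Rosi against EtOH_Rosi Ccnd1, Cdc25a (0.46) and Cdk6 (0.32) rose and Cdkn1b fell, beside 4.65% and 3.38%.

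Markers of other cells moved in some of the same comparisons. Of all genes 1.79% were called lower and 2.13% higher after 4OHT, and 3.38% and 4.65% after 4OHT with rosiglitazone. With rosiglitazone after ethanol these shares were 16.3% and 14.4%, and with it after 4OHT 12.1% and 11.6%. After 4OHT, 2 of 10 macrophage and leukocyte markers fell, Itgam (-0.63) and Lyz2 (-0.24), and the mean of the list was 8.76 to 9.01 on the EtOH arrays and 8.56 to 8.70 on the 4OHT arrays. The count of 2 was 0 without 4OHT 2 or 4OHT 3 and 1 without any 1 EtOH array. Ptprc and Adgre1 were -0.12 ± 0.11 (adjusted p = 0.669) and -0.36 ± 0.12 (adjusted p = 0.118). Of 7 precursor markers, Pdgfra fell (-0.53 ± 0.09, adjusted p = 0.00489) and Pi16 rose (1.02), with list means of 9.74 to 9.86 in EtOH and 9.70 to 9.84 in 4OHT. Of 8 endothelial markers 0 were called, with list means of 9.19 to 9.33 and 9.11 to 9.24, and of 8 smooth muscle and mural markers 2 rose, Myh11 (0.43) and Des (0.40), or 1 without EtOH 1, 4OHT 1 or 4OHT 2. Acta2 was -0.05 ± 0.13 (adjusted p = 0.923) and Pecam1 -0.15 ± 0.08 (adjusted p = 0.381). Of 3 Schwann and neural markers 0 were called after 4OHT. With rosiglitazone after ethanol, 6 of 7 precursor, 8 of 10 macrophage, 8 of 8 endothelial and 7 of 8 mural markers fell, while the eighth mural marker, Cspg4, rose (1.59); the precursor mean was 8.53 to 8.79 on the EtOH_Rosi arrays, the macrophage mean 8.31 to 8.40, the endothelial mean 8.48 to 8.62 and the mural mean 8.42 to 8.73. On the 4OHT_Rosi arrays these means were 8.55 to 8.96, 8.28 to 8.30, 8.41 to 8.74 and 8.76 to 9.11. In 4OHT_Rosi against EtOH_Rosi, 3 mural markers rose, Des (0.61), Myh11 (0.53) and Cnn1 (0.91), and Cspg4 fell (-0.35). The rises were 5 without EtOH_Rosi 1, and the fall was lost without any 1 array other than 4OHT 1 or 4OHT_Rosi 2. The endothelial marker Kdr rose there (0.49), and Pdgfra (-0.39) and Lyz2 (-0.20) fell; the call of Pdgfra was lost without EtOH_Rosi 1, 4OHT_Rosi 1 or 4OHT_Rosi 2, and that of Lyz2 without EtOH 2, 4OHT 2 or any 1 of the 6 rosiglitazone arrays. In 4OHT_Rosi against 4OHT, 6 precursor, 6 macrophage, 7 endothelial and 6 mural markers fell, and Cspg4 rose (1.07). Of 3 Schwann and neural markers, Mbp rose with rosiglitazone after ethanol (0.48) and after 4OHT (0.57). Of the 9 adipocyte markers, Cidec fell (-0.39) and Pparg rose (0.24) after 4OHT, and the call of Pparg was lost without EtOH 2, EtOH 3 or any 1 of the 4OHT arrays. With rosiglitazone after ethanol 4 adipocyte markers rose, Cidec (1.89), Adipoq (0.41), Pnpla2 (0.35) and Plin1 (0.22), and 2 fell, Lep (-3.57) and Retn (-0.23). With rosiglitazone after 4OHT 3 rose, Cidec (2.19), Adipoq (0.44) and Pnpla2 (0.24), and 2 fell, Lep (-3.37) and Retn (-0.17), the call of Retn being lost without any 1 of the 4OHT arrays, 4OHT_Rosi 1 or 4OHT_Rosi 3. In 4OHT_Rosi against EtOH_Rosi 0 of 9 adipocyte markers were called, or 1 higher without EtOH_Rosi 2 or 4OHT_Rosi 1. The leukocyte marker Ptprc lay between 6.19 and 6.99 over all arrays, and the endothelial marker Pecam1 between 9.08 and 9.97. Apart from Adipoq, Pdgfra, Ptprc, Adgre1, Pecam1 and Acta2, the markers named were chosen after their values were seen. The part of these cells in the mitosis gene results was not tested.

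**Figure D5:**
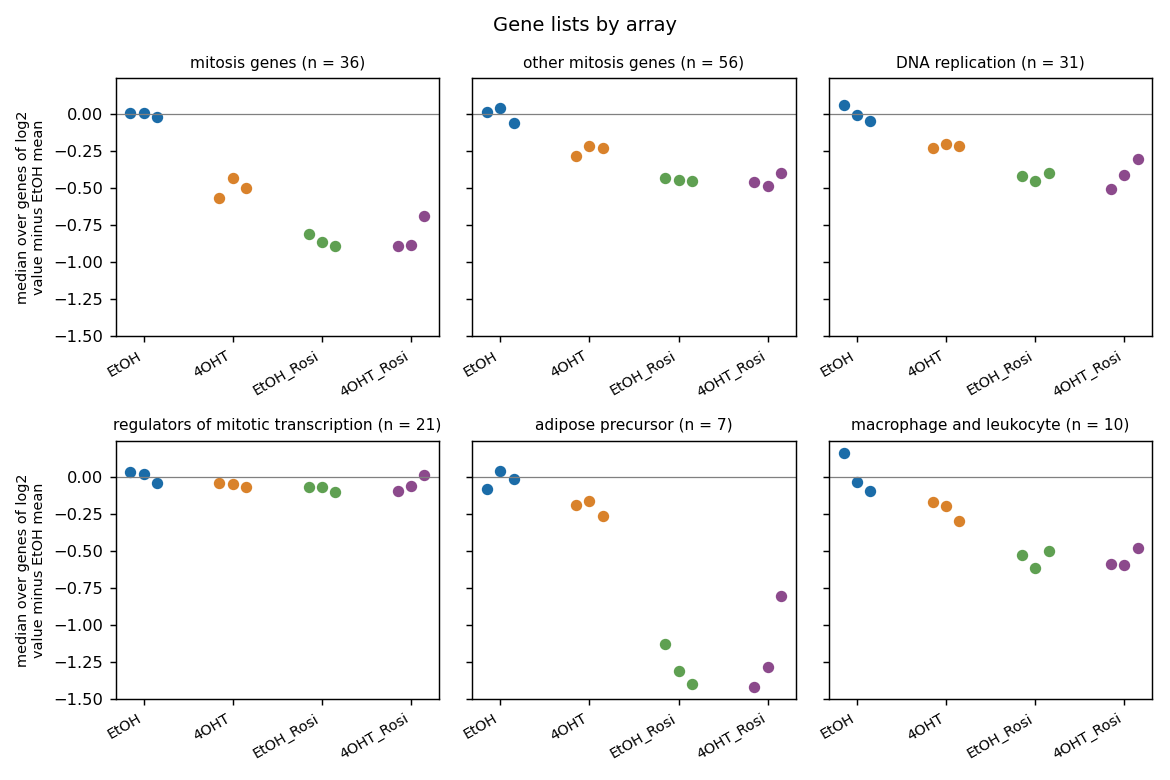
For 6 gene lists, the median over genes of the log2 value minus the EtOH mean, 1 point per array. The mitosis gene medians were -0.02 to 0.01 in EtOH, -0.57 to -0.44 in 4OHT, -0.89 to -0.81 in EtOH_Rosi and -0.89 to -0.69 in 4OHT_Rosi; the macrophage and precursor lists also lie lower with rosiglitazone.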

How the data were processed

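The deposited table of the authors holds log2 values, to 2 decimals, of 41345 probe sets on 12 arrays. They were made with Affymetrix Expression Console, per the submitters' processing notes. Version, normalization and summary method: not given in the sources used here. Of the probe sets, 23521 had 1 gene symbol in the platform annotation. Genes with several such probe sets were represented by the brightest by mean, which left 22180 genes, with no filter on dim ones.

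All 12 arrays entered 1 linear model, with a coefficient per group, in limma 3.58.1 (R 4.3.3) with eBayes (8 residual and 5.07 prior degrees of freedom). The threshold was an adjusted p (Benjamini-Hochberg, per contrast) of 0.05. The steps were tested on simulated data. Tables were made with Python 3.11.15 and pandas 2.3.3, and figures with matplotlib 3.10.9.

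The members and lists were chosen with earlier results of these data known. Values on every array were printed for the 10 members with the smallest p in 4OHT against EtOH, the 4 with the smallest p in each other contrast, those with the lowest and highest probe set mean, and those whose 4OHT differences had opposite signs without and with rosiglitazone. From pathway lists only some of the called genes were named, and these were not always the ones with the smallest p. Foxm1, Mybl2, Cdkn1a, Cdkn1b, Ccnd1 and E2f4 were named in any case. So were Prdm16 and the markers Adipoq, Pdgfra, Ptprc, Adgre1, Pecam1 and Acta2. Alternatives tried were each array left out, the replicate number as a block, only the 2 groups at hand, robust eBayes with an intensity trend, weights per array, median centring, quantile normalization, genes above the 25th or the 50th percentile of mean level, and probe sets averaged per gene. Counts of the pathway and marker lists under them were added after seeing the data.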

Additional observations from a re-analysis of the deposited data

Results flagged for a closer look

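For 8 mitosis genes and 6 genes of the other lists the 4OHT effect differed between cultures with and without rosiglitazone, by limma's interaction term at an adjusted p under 0.05. The differences of the log2 effects, with minus without rosiglitazone, were 0.90 for Kif23, 0.73 for Plk1, 0.69 for Birc5, 0.60 for Nuf2, 0.57 for Top2a, 0.55 for Ube2c, 0.53 for Hmmr and 0.48 for Cenpe. Among the further mitosis genes they were 0.61 for Depdc1a and 0.60 for the condensin subunit Ncaph, with 0.44 for its partner Smc2. Among the replication genes they were 0.50 for Mcm3 and 0.42 for Pcna, and for the endothelial marker Kdr 0.61. The adjusted p-values ran from 0.0204 (Plk1) to 0.0453 (Pcna). The calls of the 3 further mitosis genes and the 2 replication genes were all lost without EtOH 1, EtOH 2, any 1 of the 4OHT arrays, EtOH_Rosi 2, EtOH_Rosi 3 or 4OHT_Rosi 3. Of the 3, 1 was left without EtOH 3 or 4OHT_Rosi 2, and of the 2, 1 was left without EtOH 3, EtOH_Rosi 1, 4OHT_Rosi 1 or 4OHT_Rosi 2. The call of Kdr (adjusted p = 0.0379) was lost without any 1 array other than 4OHT_Rosi 1. The calls of the 8 mitosis genes were all lost without EtOH 1, EtOH 2 or 4OHT 1, and none of the 8 held in every alternative. How many were called without each other array is given in the report, but not which genes these were. These genes were listed with earlier results of these data known.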

How the results depend on the processing

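No called member reversed its direction in any alternative. Of the 32 falls after 4OHT, 14 were called in every alternative that tested them and 27 in every such one that kept all arrays; for rosiglitazone after ethanol these were 33 and 34 of 34, for rosiglitazone after 4OHT 18 and 20 of 21, for 4OHT with rosiglitazone 0 and 0 of 2, and for the interaction 0 and 1 of 8. Without 1 array, the falls after 4OHT numbered 14 to 33. For 4OHT with rosiglitazone the rises were 0 to 1, the falls 0 to 3 and the median -0.13 to 0.025. The median was -0.86 to -0.76 for rosiglitazone after ethanol and -0.50 to -0.34 after 4OHT, and the interaction had 0 to 11 calls and a median of 0.38 to 0.53. Keeping genes above the 50th percentile of the mean level left 23 members, with medians of -0.57 after 4OHT, -1.09 for rosiglitazone after ethanol and -0.47 after 4OHT; above the 25th percentile 1 member rose after 4OHT with rosiglitazone. Median centring gave 3 interaction calls, and fitting the 2 groups compared gave 0 falls after 4OHT with rosiglitazone; that fit has no interaction. With the replicate block, 29 members fell after 4OHT, 0 after 4OHT with rosiglitazone, and 2 were called in the interaction. With it 3 replication genes and 1 macrophage marker were called lower and 2 genes of the G1 list higher after 4OHT, and the rise of Pparg, the fall of Cspg4 after 4OHT with rosiglitazone, the fall of Retn with rosiglitazone after 4OHT and the interaction of Kdr were not called. The interaction calls numbered 1 among the further mitosis genes and 0 among the replication genes with the block, and 0 in both with median centring, which lost that of Kdr too. The 42 falls among the 56 further mitosis genes with rosiglitazone after ethanol were 25 among the 32 of them above the 50th percentile. After 4OHT with rosiglitazone, the 2 falls and 2 rises of that list were 1 to 4 and 0 to 4 over the alternatives that kept all arrays. No label says whether equal numbers pair the arrays. Residuals of arrays with the same number correlated at -0.24 to 0.08 across genes, and those of arrays with different numbers at -0.16 to 0.32. With 3 arrays per group these values cannot settle whether arrays were paired. The cause of these shifts was not tested, beyond the fewer genes or arrays in some fits. The signal of the 13 dimmer members and the 3 arrays per group limit what can be called.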
